A study of Saccharomyces cerevisiae with 4 samples.

Results

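The 5′ external transcribed spacer (5′ ETS) is the stretch of the 35S pre-rRNA that lies ahead of 18S rRNA and is removed before the small ribosomal subunit is complete. Its members here were the nucleotides of the 5′ ETS block in the deposited 35S profile of each library, 700 of 6858 nucleotides in all, numbered from 1 at the transcript's 5′ end. They held 211 uridines, 30.1% of the block, which are the only bases at which the libraries can carry a cross-link mark. The block belongs to the rDNA unit RDN37, an array of near-identical copies. The profile is that of 1 annotated copy and does not tell from which copy a read came.

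Cross-linking was measured by PAR-CRAC in Saccharomyces cerevisiae. Cells take up 4-thiouracil, ultraviolet light of 365 nm joins the thiolated uridines to bound protein, the protein is purified through an affinity tag, and the cross-linked base is read as C in place of T. The 4 libraries came from 2 strains of the BY4741 background, with 2 libraries each. The WT strain carried no tagged protein and measures the background of the purification. The Dbp7-HTP strain expressed the RNA helicase Dbp7 from its own locus with a C-terminal His, TEV and ProtA (HTP) tag. All 4 cultures were labelled with 4-thiouracil and irradiated, so that by the titles and characteristics the strains differ in the tag alone. The growth protocol in the labels names other tagged helicases instead of Dbp7. The titles, which name Dbp7-HTP, were followed here. The labels call the libraries replicate 1 and replicate 2 of each strain, and the comparison asks whether RNA recovered with Dbp7 differs from that recovered without a tag.

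The 5′ ETS emerges first from RNA polymerase I. It is the platform on which the small subunit processome gathers around the U3 snoRNA, which base-pairs with the spacer, and it is cut at site A0 within the spacer and at site A1 at the border with 18S. Dbp7 belongs to the helicases of the other subunit, whose rRNAs (5.8S and 25S) lie far downstream in the same transcript.

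The sites on which the results turn are shown first, as deposited with T for U, 5′ to 3′, with the named uridine in capitals and 20 nucleotides on each side. U491, U37, U540, U116 and U541 held the highest mean shares of the 5′ ETS substitutions. U340 and U604 passed the test over single uridines, with enough counts for it only through the WT libraries. U266 was chosen after its values were seen, and passed that test as higher with Dbp7-HTP under another scaling, given below. It had reads in all libraries and substitutions in the Dbp7-HTP libraries alone. This pattern was not unique to U266, since U71, U99, U177 and U370, among others, also had it.
U37: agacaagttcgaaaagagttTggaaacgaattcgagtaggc
U116: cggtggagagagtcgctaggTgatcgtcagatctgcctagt
U266: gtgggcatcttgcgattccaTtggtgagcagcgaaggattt
U340: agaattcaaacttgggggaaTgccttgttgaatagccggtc
U491: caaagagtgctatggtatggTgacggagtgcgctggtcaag
U540 and U541: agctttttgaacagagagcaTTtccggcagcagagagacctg
U604: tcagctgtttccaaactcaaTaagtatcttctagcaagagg

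The 5′ ETS was thinly covered in all libraries. The mean depth was 11.1 and 21.4 reads per nucleotide in WT replicates 1 and 2, and 33.0 and 12.6 in the corresponding Dbp7-HTP libraries. The substitutions numbered 244, 408, 636 and 266 in the same order. In these profiles of reads kept for a T-to-C change, none lay on another base. No read covered nucleotides 196 to 227 in WT replicate 1 or 644 to 670 in Dbp7-HTP replicate 2. Scaled to library totals, which ran from 159127.4 to 1214216.7 reads, the mean coverage was 69.6 reads per 1000000 (RPM) for the first and 45.7 for the second WT library, against 27.1 and 17.2 with Dbp7-HTP. The totals of both first replicates were estimated, and only those of the second replicates are stated in the files. Every WT value lay above every Dbp7-HTP value.

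**Figure D1:**
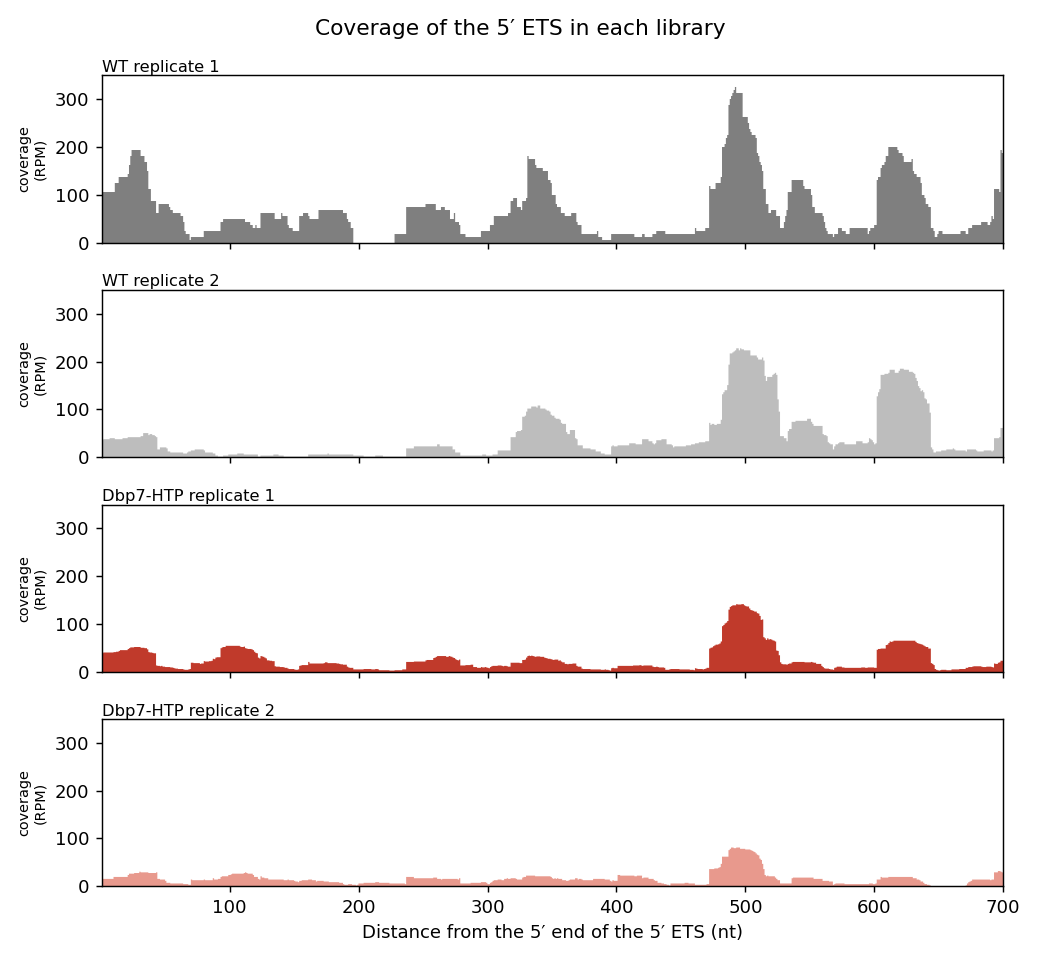
Coverage in RPM at each of the 700 nucleotides of the 5′ ETS, 1 panel per library on 1 scale, with distance from the 5′ end on the x axis. The highest point lies between nucleotides 489 and 493 in all 4 libraries and falls from 327 RPM in WT replicate 1 to 82.1 RPM in Dbp7-HTP replicate 2.

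The profile had 1 dominant maximum common to all libraries. It lay at nucleotide 492 in WT replicate 1 (52 reads, 327 RPM), at 493 in WT replicate 2 (107 reads, 229 RPM), at 493 in Dbp7-HTP replicate 1 (173 reads, 142 RPM) and at 489 in Dbp7-HTP replicate 2 (60 reads, 82.1 RPM). At 50% of its height it was 31 to 44 nucleotides wide. The next maximum at least 50 nucleotides away lay at 611, 620 and 615 in the first 3 of these libraries, but at 696, next to the end of the spacer, in Dbp7-HTP replicate 2. There, nucleotide 615 held 15 reads, or 20.5 RPM, against 201, 184 and 65.9 RPM in the other libraries. The third maximum was at a different place in each library, at 700, 339, 97 and 30. Across the 700 nucleotides, Pearson's r of coverage was 0.808 between the WT libraries, 0.884 between the Dbp7-HTP libraries and 0.670 to 0.838 between strains. These are descriptions across neighbouring nucleotides that share reads, not independent points.

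The order of the stretches within the spacer was less uniform. Nucleotides 51 to 300 took 21.2% of the 5′ ETS coverage in WT replicate 1 and 6.72% in WT replicate 2, against 26.3% and 27.5% in the Dbp7-HTP libraries. Nucleotides 451 to 650 took 44.4% and 64.2% in WT and 48.4% and 38.4% with Dbp7-HTP. WT replicate 2 thus stood apart from the other 3 libraries in both stretches, and WT replicate 1 lay closer to the Dbp7-HTP libraries than to its own replicate. The stretches were chosen after the values were seen and were not tested.

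As a share of the whole 35S pre-rRNA, the 5′ ETS was lower in both Dbp7-HTP libraries than in both WT libraries. It held 0.993% and 0.802% of the 35S coverage in WT, against 0.237% and 0.155% with Dbp7-HTP. The means were 0.898% ± 0.136 (SD, n = 2) and 0.196% ± 0.0581 (SD, n = 2), a difference of -0.701 percentage points that exceeded the spread between replicates. The exact two-sided permutation test gave p = 0.333, which is the smallest p that 2 against 2 libraries allow. Substitutions gave like shares, 0.953% (95% Wilson interval 0.841 to 1.08) and 0.725% (0.658 to 0.798) in WT against 0.211% (0.195 to 0.228) and 0.140% (0.124 to 0.158) with Dbp7-HTP. These intervals cover counting error only, since reads without molecular identifiers are not independent molecules. Coverage and substitutions count the same reads, each kept for a T-to-C change, so the like shares are no independent measure.

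This difference moved with 25S, which held 60.1% and 49.9% of the 35S coverage in WT and 86.1% and 86.0% with Dbp7-HTP. Taken as a share of the coverage outside 25S, the 5′ ETS held 2.49% and 1.60% in WT and 1.71% and 1.11% with Dbp7-HTP, so that the strains overlapped (exact permutation p = 0.667). In RPM, the difference of the 5′ ETS was -1.34 on the log2 scale after adding 1 RPM, a 2.54-fold lower level with Dbp7-HTP (pooled SD 0.43, n = 2 per strain, exact permutation p = 0.333).

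18S and ITS1, each taken as a whole region, had differences of similar size to that of the 5′ ETS. 18S, the rRNA of the small subunit, had 850 and 920 RPM in WT and 342 and 356 RPM with Dbp7-HTP, also a difference of -1.34 on the log2 scale. ITS1, the spacer between 18S and 5.8S, had a difference of -1.59 as a whole, but its parts went opposite ways. Its nucleotides 151 to 200 had 508 and 483 RPM in WT and 79.9 and 68.7 RPM with Dbp7-HTP. Its nucleotides 301 to 350 had 16.7 and 7.19 RPM in WT and 66.3 and 63.6 RPM with Dbp7-HTP. 25S, the main rRNA of the large subunit, differed by 1.48 and the 3′ ETS by 3.12 toward Dbp7-HTP. The mean coverage of the 5′ ETS relative to that of 18S was 0.0819 and 0.0497 in WT, and 0.0793 and 0.0484 in the same order with Dbp7-HTP. The log2 difference of this ratio was -0.04 with a pooled SD of 0.51, and the exact permutation test gave p = 0.667. Relative to the whole of ITS1, the ratios were 0.487 and 0.235 in WT and 0.480 and 0.321 with Dbp7-HTP. Their log2 difference was 0.22 with a pooled SD of 0.60, over an ITS1 mean that joins parts of opposite direction. In both ratios the strains overlapped, and replicate 1 lay above replicate 2 in each strain. A read number moves with the amount of precursor in the cells and with its recovery alike, and these cannot be told apart here.

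**Figure D2:**
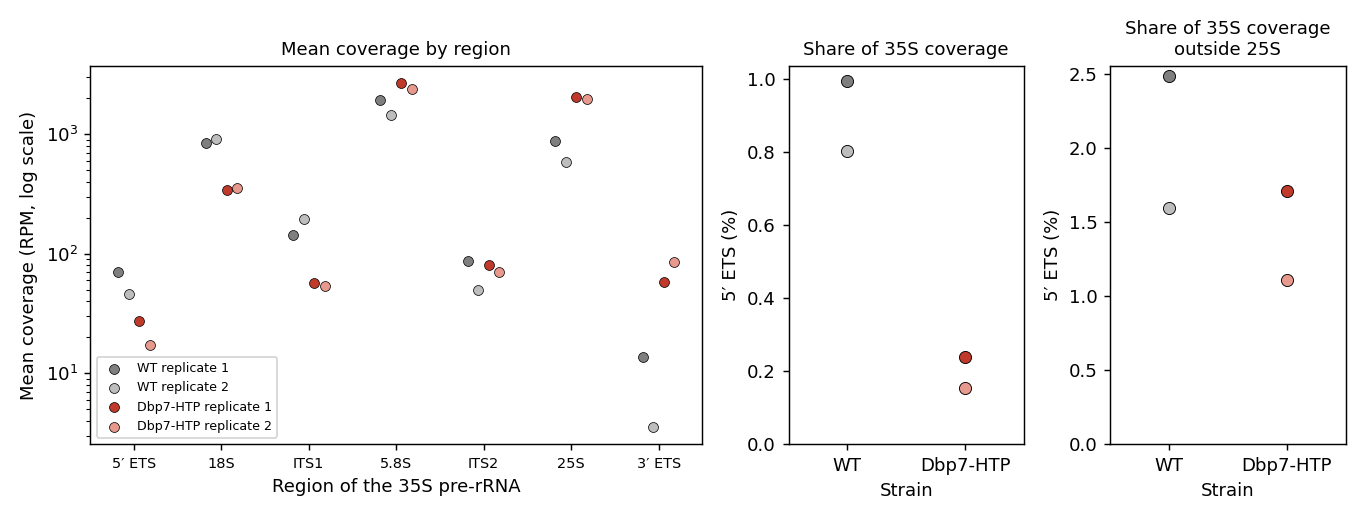
Left, mean coverage in RPM (log scale) of each region of the 35S pre-rRNA, 1 point per library; middle and right, share of the 5′ ETS in the 35S coverage and in the coverage outside 25S, in percent. The 5′ ETS, 18S and ITS1 are lower in both Dbp7-HTP libraries than in both WT libraries, and the strains overlap once 25S is left out of the denominator.

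The spacer was next compared in 14 windows of 50 nucleotides. With limma on log2(RPM + 1), 0 windows rose and 6 fell at an adjusted p below 0.05, namely those that start at nucleotides 301, 351, 501, 551, 601 and 651. Over all 134 windows of the 35S, 22.4% passed the test in the direction of lower and 22.4% in that of higher coverage, or 44.8% together, so that calls were common along the whole transcript. The median log2 ratio of the 14 windows was -1.23, against 0.08 over all windows tested. With edgeR on the substitution counts of the same reads, 0 rose and 6 fell, those from 1, 301, 451, 501, 551 and 601. Of all 134 windows, 23.9% fell and 26.1% rose in that fit. The calls were lost with 1 library fewer: without Dbp7-HTP replicate 2, both tools called 0 of the 14 windows, and without Dbp7-HTP replicate 1 limma called 1 and edgeR 0. Without WT replicate 2, limma called 12 windows lower, where 34.3% of all windows were lower, while edgeR called 5 lower, where 26.9% were. Without WT replicate 1, limma called 7 lower and 1 higher, that from 101, where 31.8% of all windows were lower and 36.4% higher. EdgeR then called 4 lower and 1 higher, that from 151, where 26.9% were lower and 36.6% higher. Scaled to the 35S itself, both tools called 9 windows lower, where 37.3% (limma) and 40.3% (edgeR) of all windows were lower and the limma median over all windows moved to -0.76. Scaled to the coverage or the substitutions outside 25S, limma called 1 window lower and edgeR 0, where 5.97% of all windows were lower by either tool and the limma median over all windows moved to 0.93.

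The largest fall in coverage by limma was in the window of nucleotides 601 to 650, which holds the second maximum of 3 libraries. By edgeR the windows from 551, 601, 501 and 301 had nearly equal falls in substitutions, with log2 ratios of -2.14, -2.11, -2.09 and -2.07. The coverage of the window from 601 was 135 and 140 RPM in WT and 51.7 and 14.2 RPM with Dbp7-HTP. Its log2 ratio was -2.29 ± 0.58 (SE, limma adjusted p = 0.00399). The ratio was -3.19 without Dbp7-HTP replicate 1 and -1.40 without Dbp7-HTP replicate 2, where it was no longer called (limma adjusted p = 0.309). It is the window that limma still called under the scaling without 25S, with a log2 ratio of -1.47 and an adjusted p of 0.0400. The Dbp7-HTP libraries differed from each other here by more than in any other window of the spacer, and each lay below both WT libraries. The window from 301 to 350 had 102 and 60.7 RPM in WT and 22.5 and 18.1 RPM with Dbp7-HTP, a log2 ratio of -1.91 ± 0.51 (SE, limma adjusted p = 0.00653). Its substitutions numbered 30 and 40 in WT and 38 and 23 with Dbp7-HTP.

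In the opposite direction, the window from 101 to 150 had the highest log2 ratio, 0.59 ± 0.70 (SE, limma adjusted p = 0.491). Its values were 48.3 RPM for the first WT library and 5.09 RPM for the second, and 31.4 and 20.1 RPM with Dbp7-HTP. The Dbp7-HTP libraries fell between the WT libraries, which lay far apart. The next window in this order, from 51 to 100, had a log2 ratio of -0.23 ± 0.58 (SE, limma adjusted p = 0.771), with 36.8 and 10.4 RPM in WT and 22.0 and 12.7 RPM with Dbp7-HTP.

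**Figure D3:**
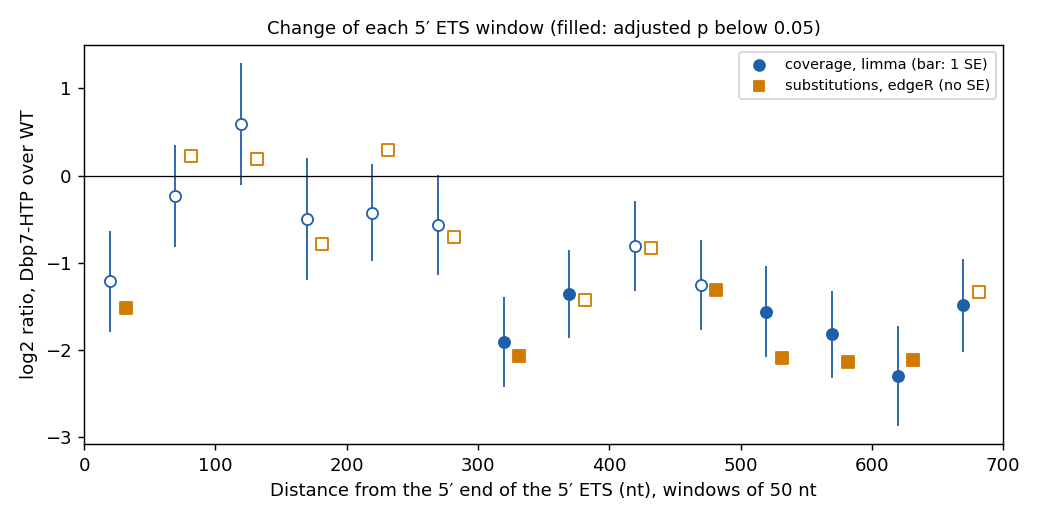
log2 ratio of Dbp7-HTP over WT for each 50-nucleotide window of the 5′ ETS, from coverage with limma (circles, bars 1 SE) and from substitutions with edgeR (squares); filled symbols passed an adjusted p of 0.05. The 6 windows called by limma lie between nucleotides 301 and 700, and the ratios between 51 and 300 lie nearest 0.

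Substitutions give the position of the cross-linked base itself. Only reads with a T-to-C change had been kept. The share of reads substituted at a site thus tells where kept reads were marked, not how often the site was cross-linked. Of the 211 uridines, 156 carried a substitution in at least 1 library, 28 in all 4 and 55 in none. In single libraries, 74 and 90 uridines were marked in WT and 118 and 82 with Dbp7-HTP, an order that follows the substitutions counted per library. In the spacer 18 uridines (8.53%) were marked in both Dbp7-HTP libraries and neither WT library, and 5 (2.37%) the other way round. Over all 1920 uridines of the 35S these patterns made up 3.23% and 0.677%, in regions that were mostly more deeply covered, and their frequency in the spacer was not tested against depth. Together, the 5 uridines with the highest mean share over the libraries took 26.6% to 36.1% of the 5′ ETS substitutions of a library.

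U491 led in every library. It carried 35 substitutions in 51 reads in WT replicate 1, 71 in 104 in WT replicate 2, 119 in 170 in Dbp7-HTP replicate 1 and 47 in 59 in Dbp7-HTP replicate 2. The share of its reads with a substitution was 68.6%, 68.3%, 70.0% and 79.7%, with overlapping intervals from 55.0% to 79.7% for WT replicate 1 and from 67.7% to 88.0% for Dbp7-HTP replicate 2. It held 14.3% and 17.4% of the 5′ ETS substitutions in WT and 18.7% and 17.7% with Dbp7-HTP. Its place under the common maximum, and its share there, were thus alike in tagged and untagged cells, within intervals of this width. In edgeR over the 1499 uridines of the 35S with enough counts, its log2 ratio was -1.18 (adjusted p = 0.141).

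U37 was the second site by mean share. It was substituted in 6 of 18 reads in WT replicate 1 (33.3%, interval 16.3 to 56.3), in 20 of 22 in WT replicate 2 (90.9%), in 48 of 51 in Dbp7-HTP replicate 1 (94.1%) and in 20 of 21 in Dbp7-HTP replicate 2 (95.2%). WT replicate 1 stood apart from the other 3 libraries. In that library the neighbouring U25, singled out after its values were seen, carried 18 substitutions in 31 reads, against 2 in 20, 8 in 63 and 2 in 20 in the others. The U37 counts gave a log2 ratio of -0.27 (edgeR adjusted p = 0.760).

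U116 was more often seen with Dbp7-HTP. It had 3 substitutions in 6 reads and 3 in 3 in WT, against 36 in 59 and 15 in 20 with Dbp7-HTP. This made 1.23% and 0.735% of the 5′ ETS substitutions in WT and 5.66% and 5.64% with Dbp7-HTP. Its log2 ratio against library totals was 1.26 (edgeR adjusted p = 0.273), and the WT shares rest on 3 substitutions each.

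U266 carried 0 substitutions in 12 reads in WT replicate 1 and 0 in 11 in WT replicate 2, with upper 95% Wilson bounds of 24.2% and 25.9% of the reads. With Dbp7-HTP it carried 20 in 41 reads (48.8%, interval 34.3 to 63.5) and 6 in 12 (25.4 to 74.6). Against a floor of 3 counts over both WT libraries, the substitutions per read of the libraries were at least 2.79-fold higher with Dbp7-HTP, and at least 6.26-fold higher per 5′ ETS substitution. These values are a description of a site picked for them. It had enough counts for the test over single uridines only through the Dbp7-HTP libraries, so that a call there is no support for a difference.

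In the test over single uridines, added after the data were seen, 34 of the 211 uridines had enough counts. Of these, 0 rose and 3 fell, where 12.7% of the 1499 uridines tested rose and 10.7% fell. U340 fell, with 6 and 8 substitutions in WT and 3 and 1 with Dbp7-HTP (log2 ratio -3.48, edgeR adjusted p = 0.0258). U541, with 10 and 19 in WT and 7 and 7 with Dbp7-HTP, had a log2 ratio of -2.71 (edgeR adjusted p = 0.0270). Its direct neighbour U540, with 11 and 15 against 16 and 7, had -2.03 and did not pass (edgeR adjusted p = 0.0627). U604 passed with a log2 ratio of -2.86 (edgeR adjusted p = 0.0488), but its WT substitutions were 1 and 24, against 7 and 2 with Dbp7-HTP. In RPM, its WT replicate 1 lay at 6.28, just above the 5.77 of Dbp7-HTP replicate 1. U340 and U604 had enough counts for this test only through the WT libraries, with 4 and 9 substitutions in the Dbp7-HTP libraries together. Their calls, under this and other scalings, are thus no support for a difference. Scaled to the 35S substitutions, 14 uridines of the spacer were lower, where 26% of all uridines tested were. Scaled to the substitutions outside 25S, U340 alone was lower (edgeR adjusted p = 0.0481), where 4.07% of all uridines tested were lower and 27.7% higher. Under that scaling U541 (edgeR adjusted p = 0.0699) and U604 (edgeR adjusted p = 0.115) did not pass, and U266 was the 1 uridine called higher. With WT replicate 1 left out 5 were lower and 1, again U266, was higher, where 19% of all uridines tested were lower and 30.2% higher. With WT replicate 2 left out 7 were lower, where 15.5% were. All these counts are small, and 0 uridines of the spacer were called when either Dbp7-HTP library was left out.

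**Figure D4:**
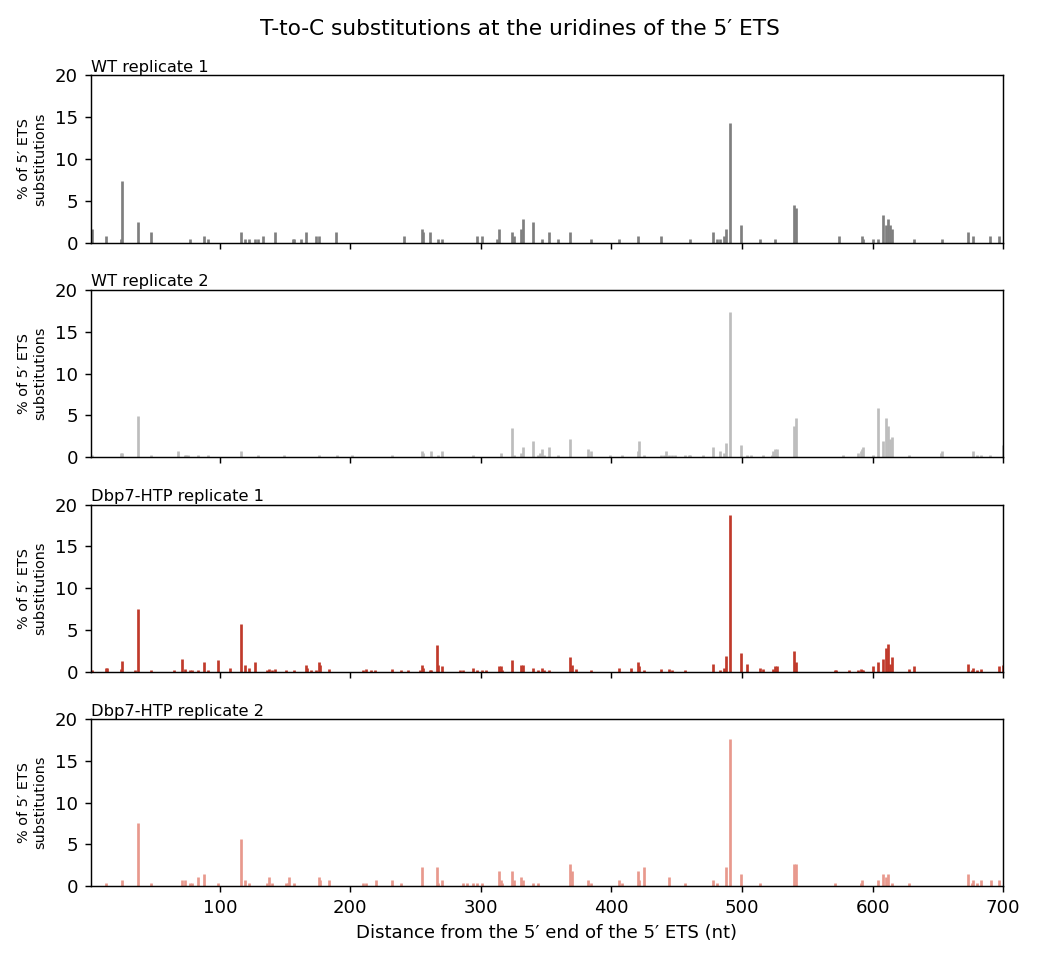
Percent of the 5′ ETS substitutions at each of the 211 uridines, 1 panel per library, against distance from the 5′ end. U491 is the highest bar in all 4 panels, and U116 stands out in the Dbp7-HTP panels only, at 5.66% and 5.64%.

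**Figure D5:**
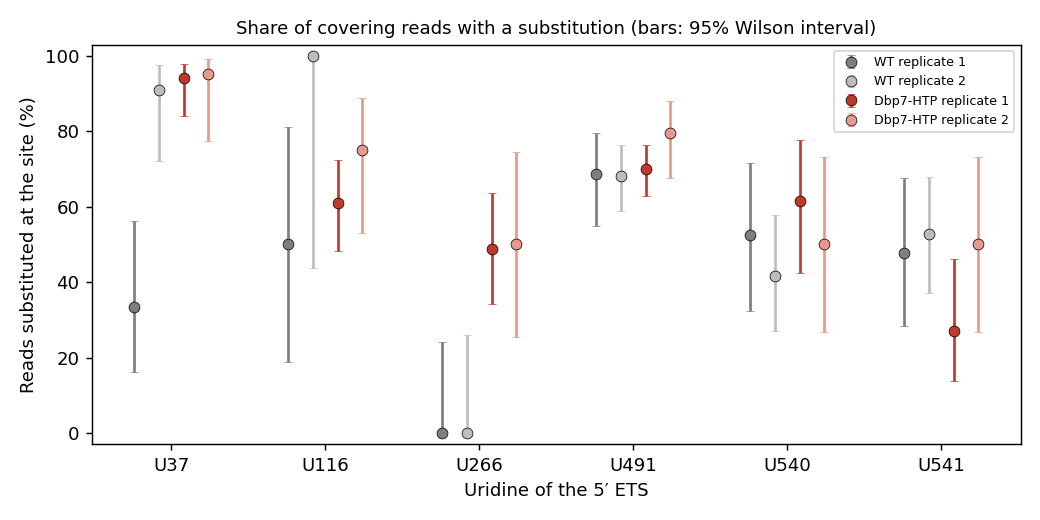
Percent of the reads over 6 uridines that carry a substitution there, 1 point per library with its 95% Wilson interval. All reads counted had been kept for a T-to-C change, so these are not rates over all RNA at the site. U491 lies between 68.3% and 79.7% in all libraries, while U266 is at 0 in both WT libraries and near 50% in both Dbp7-HTP libraries.

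The base that follows the uridine differed among the sites shown. U37, U116, U340 and U491, but not U266, U540, U541 or U604, are followed by G in the sequences printed above. Among all 211 uridines 54 precede a G, 25.6%, and these took 38.1% and 42.6% of the substitutions in WT and 54.2% and 54.5% with Dbp7-HTP. With U491 left out, the shares were 27.8% and 30.6% against 43.7% and 44.7%. In the rest of the 35S, where 26.8% of the uridines precede a G, these took 28.9% and 37.3% in WT and 28.6% and 26.2% with Dbp7-HTP. A higher share with Dbp7-HTP than in WT was seen in the spacer and not over the remaining transcript, as a description of 4 libraries in which a few sites carry much of the weight. U116 and U491 share the run GGTGA, searched on the transcribed strand only, with the marked uridine as its T. It occurs 3 times in the 5′ ETS and 11 times in the 35S. The third copy in the spacer, at U270, had 1 and 3 substitutions in WT and 4 and 2 with Dbp7-HTP, in 11, 11, 41 and 12 reads, so that the run alone did not mark a strong site.

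The last window is the most uridine-rich of the spacer. It carried few substitutions per uridine, 0.333 and 0.567 in WT and 0.733 and 0.467 with Dbp7-HTP. This was not particular to it: the window from 201 carried fewer in each library, 0.105 and 0.105 in WT and 0.474 and 0.368 with Dbp7-HTP. The last window is shown in full, with every uridine as a capital T.
nucleotides 651 to 700: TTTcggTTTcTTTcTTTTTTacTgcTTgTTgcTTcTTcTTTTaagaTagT
It holds 30 uridines, 60.0% of its bases, in runs of up to 6. It carried 10 and 17 substitutions in WT and 22 and 14 with Dbp7-HTP, which was 4.10%, 4.17%, 3.46% and 5.26% of those in the 5′ ETS. Its share of the 5′ ETS coverage was similar, 4.92%, 3.24%, 2.73% and 4.53% in the same order. Its coverage was 48.0 and 20.7 RPM in WT and 10.4 and 10.9 RPM with Dbp7-HTP, a log2 ratio of -1.49 ± 0.53 (SE, limma adjusted p = 0.0305). The ratio was -0.90 without WT replicate 1 and -2.07 without WT replicate 2. Part of its depth lay in the last 8 nucleotides: from nucleotide 692 to 693 the reads rose from 8 to 18, 7 to 19, 12 to 22 and 11 to 22, in all 4 libraries at the same place. In WT replicate 1 the largest step of the window lay elsewhere, from 17 reads at nucleotide 697 to 31 at 698.

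Nucleotide 700 is the last before site A1, and a read over it and over 18S comes from RNA not yet cut there. It was covered by 32 and 30 reads in WT and by 28 and 23 with Dbp7-HTP, while the first nucleotide of 18S was covered by 210 and 422 in WT and by 952 and 791 with Dbp7-HTP. The depth ahead of the border was 15.2% (95% Wilson interval up to 20.7) and 7.11% (5.02 to 9.97) of that behind it in WT, against 2.94% (2.04 to 4.22) and 2.91% (1.95 to 4.33) with Dbp7-HTP. The means were 11.2% ± 5.75 and 2.92% ± 0.0237 (SD, n = 2 each), 3.82-fold apart, and the exact permutation test gave its smallest p of 0.333. The Wilson intervals take the reads at nucleotide 700 as a part of those behind the border, which was not checked. In WT replicate 1, the depth at nucleotide 700 includes the step from 697 to 698. In RPM, nucleotide 700 stood at 201 and 64.2 in WT and at 23.1 and 31.5 with Dbp7-HTP, whereas the first nucleotide of 18S stood at 1320 and 903 against 784 and 1083, with overlap between the strains. Averaged over the 50 nucleotides on each side, the depth ahead of the border was 2.69% and 1.84% of that behind it in WT and 1.27% and 0.994% with Dbp7-HTP, again without overlap and with p = 0.333 in the exact permutation test.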

How the data were processed

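PAR-CRAC libraries of 2 WT and 2 Dbp7-HTP cultures were analysed. The authors mapped reads with Bowtie2 (2.2.4), retained only T-to-C reads and counted them with pyCRAC; the genome release is not given in the sources used here, so positions are those within the deposited block. The deposited coverage signal and the deposited substitution counts per nucleotide were used without normalization. The deposited RNA class values, scores in RPM rounded by the authors, and the stated totals of the second replicates served to scale libraries. Totals of the first replicates were estimated from coverage per rRNA read (12.2 in WT, 11.1 with Dbp7-HTP). These class reads exceed those of the single-copy profile, which limits absolute RPM values, not shares. snoRNA tables were not used. The last row of the 5′ ETS block, which repeats 1 nucleotide of 18S, was removed.

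Windows of 50 nucleotides over the 35S were tested with limma 3.58.1 on log2(RPM + 1) (mean of at least 10 RPM) and edgeR 4.0.16 (quasi-likelihood) on counts (at least 10), in R 4.3.3, with Benjamini-Hochberg adjustment over all windows at 0.05; single uridines likewise with edgeR. Other values used two-sided exact permutation tests (Python 3.11.15, scipy 1.17.1; matplotlib 3.10.9). The limma and edgeR fits alone were run on simulated data, with independent windows. In the real data adjacent windows share reads, which that simulation leaves out. The libraries of a strain come from independent experiments by the study's account; the labels name no culture. Sites named were the 3 highest coverage maxima per library at least 50 nucleotides apart, the 5 uridines with the highest mean share, the 2 windows with the largest log2 ratio in each direction, and the border with 18S; others are said to be chosen after their values were seen. Members, lists and tests were chosen with earlier results of these data known. Alternatives covered the scaling, the totals, window size, filter, pseudocount, tool, replicate block and omission of each library.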

Additional observations from a re-analysis of the deposited data

How the results depend on the processing

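The 5′ ETS share of 35S coverage and of substitutions kept its direction under every alternative run, with differences of -0.797 to -0.606 and -0.777 to -0.549 percentage points when single libraries were left out. With 25S left out of the denominator they were -0.635 and -0.619, on a larger scale of shares. Mean coverage shares were then 2.04% in WT and 1.41% with Dbp7-HTP. The strains overlapped there in both measures (exact permutation p = 0.667 each). The log2 ratio of mean coverage was -2.15 when scaled to the 35S coverage, -0.52 when scaled to the coverage outside 25S, and -1.66 to -1.03 with 1 library left out. Its ratio to 18S ran from -0.40 to 0.32 and to ITS1 from -0.31 to 0.74 with 1 library left out, on both sides of 0. Windows called by limma were 6, but 1 when scaled without 25S, 3 with the first-replicate totals taken from the other strain's coverage per read, 3 with a trended robust eBayes and 0 to 12 with 1 library left out. Windows called by edgeR were 6, but 0 when scaled without 25S, 1 with windows of 100 nucleotides, and 0 to 5 with 1 library left out. For the window from 1, the edgeR log2 ratio of -1.51 was -0.31 without WT replicate 1, and for that from 601 it ran from -3.19 to -1.54. Single uridines called were 3, but 14 when scaled to the 35S substitutions and 0 to 7 with 1 library left out. Why these counts move was not tested.

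Of the windows called in a main setting or with the 2 largest coverage ratios in each direction, 2 changed sign. Neither was a call in its main setting. Windows outside that list changed sign too. The one from 151 went from an edgeR log2 ratio of -0.78 to 2.17 without WT replicate 1. Scaled without 25S, the limma ratios of those from 151, 201 and 251 turned from -0.50, -0.43 and -0.56 to 0.28, 0.36 and 0.24. The edgeR ratios of those from 151, 251 and 401 turned from -0.78, -0.70 and -0.83 to 0.096, 0.17 and 0.0015. For coverage, the window from 101 was at 0.59 and turned to -0.18 when scaled to the 35S, and ran from -0.91 to 2.10 with 1 library left out. The window from 51 was at -0.23, turned to 0.57 when scaled without 25S, and ran from -1.09 to 0.63. For substitutions, the window from 51 turned from 0.23 to -0.67 when scaled to the 35S and to -0.040 with DESeq2, and ran from -0.087 to 0.46 with 1 library left out. The window from 101 turned from 0.19 to -0.60 and to -0.066 under the same settings, and ran from -0.87 to 1.93.

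Same-numbered libraries deviated together only weakly, with a correlation of 0.137 over the 14 windows and 0.0849 over all 138, and 2 pairs do not settle whether the numbers pair the cultures. With the replicate block, limma called 6 windows, edgeR 8 windows and 4 uridines, and the mean differences cannot change. Taken by number, the 2 differences were -0.756 and -0.647 points for the share of coverage, -0.742 and -0.585 points for that of substitutions, -1.33 and -1.36 (log2) for mean coverage, -0.046 and -0.038 for the ratio to 18S and -0.020 and 0.45 for that to ITS1. Their SD was 0.022 for mean coverage and 0.0056 for the ratio to 18S, against 0.43 and 0.51 unpaired. The depth of 11.1 to 33.0 reads per nucleotide limits every site named.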
